A study of Mus musculus with 2 samples.

Results

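Regions of open chromatin in the first introns of protein-coding genes, more than 5 kb from any protein-coding transcript start, were examined in mouse common myeloid progenitors. Overlapping peaks of the conservative list, which is filtered by the irreproducible discovery rate (IDR, a measure of how well ranked peaks recur between replicates), were merged on chromosomes 1 to 19 into 65789 regions, each placed by the summit of its strongest peak. A region was a member when its summit lay more than 5 kb from the nearest of 52092 starts annotated in GENCODE M21, in no exon, and inside intron 1 of the longest transcript (by spliced length) of a protein-coding gene. This gave 4696 members of the 65789 regions. The same rule applied to all later introns gave 12968 regions, which served as the comparison. Of the members, 82 also lay in a later intron of another gene.

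The cells were C57BL/6J male adult primary common myeloid progenitors, aged 5 to 6 weeks per the labels, with no treatment named. ATAC-seq, in which a transposase inserts sequencing adapters into accessible DNA, was run on 2 libraries of 50000 cells each, labelled biological replicates 1 and 2. The donor entry of the libraries is identical, and separate animals are not mentioned, so the spread between the libraries may be technical. There is 1 group, and every comparison below is between kinds of sequence within it. The p-values therefore measure spread between genes, the n given with them, and not between animals.

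Common myeloid progenitors give rise to granulocytes, monocytes, red cells and megakaryocytes, under factors such as PU.1, C/EBP, RUNX1 and GATA proteins. First introns are on average the longest introns of a gene and are known to hold enhancers, which raise transcription from a distance. CTCF, a zinc-finger protein that anchors chromatin loops, makes a separate class of open site that can lie far from any gene start.

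The windows printed here reach 50 bp each side of a summit and are given 5′ to 3′ on the plus strand of mm10 (GRCm38.p6). Capitals mark matches to a consensus on either strand: that of CTCF, that of the composite E-box-GATA, GAGGAAGT for PU.1, TGTGGTTT for RUNX, CCACNCCC for KLF, TTGCNNAA for C/EBP and TGANTCA for AP-1. The consensus AGATAAG stands for the zinc-finger factors GATA1 and GATA2 and is called GATA below. The composite overlaps the GATA consensus by all but its last base. A match describes the letters and does not show that a factor was bound. The first set holds the strongest member in 6 of the 10 genes with most members per kb, chosen to show the motifs on which members and later-intron regions are compared below. They lie at chr1:120013280-120013380 (Sctr, with CTCF), chr14:19971011-19971111 (Gng2, PU.1), chr10:120183048-120183148 (Irak3, GATA), chr1:149940440-149940540 (Pla2g4a, RUNX), chr4:145241126-145241226 (Tnfrsf1b, C/EBP then PU.1) and chr2:129602034-129602134 (Sirpa, AP-1). Sctr and Sirpa are on the plus strand and the other 4 genes on the minus strand.
Sctr: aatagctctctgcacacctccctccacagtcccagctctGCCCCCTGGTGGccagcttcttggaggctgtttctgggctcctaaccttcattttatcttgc
Gng2: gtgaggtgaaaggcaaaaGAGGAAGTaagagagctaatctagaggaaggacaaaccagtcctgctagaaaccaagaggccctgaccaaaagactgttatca
Irak3: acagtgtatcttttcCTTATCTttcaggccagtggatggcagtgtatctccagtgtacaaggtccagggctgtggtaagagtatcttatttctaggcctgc
Pla2g4a: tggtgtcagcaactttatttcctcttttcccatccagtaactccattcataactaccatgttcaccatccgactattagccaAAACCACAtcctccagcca
Tnfrsf1b: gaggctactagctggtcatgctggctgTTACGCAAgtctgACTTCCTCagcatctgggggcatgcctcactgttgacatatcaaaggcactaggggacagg
Sirpa: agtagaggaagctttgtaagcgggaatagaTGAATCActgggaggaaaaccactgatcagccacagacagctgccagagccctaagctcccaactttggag

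The second set holds 4 of the 10 strongest members by signal. They lie at chr9:53693851-53693951 (Rab39, minus strand, PU.1), chr3:68160933-68161033 (Schip1, plus strand, GATA and E-box-GATA), chr14:63681661-63681761 (Xkr6, plus strand) and chr13:119631886-119631986 (Ccl28, plus strand). The Xkr6 and Ccl28 windows hold none of these consensuses. Each repeats a stretch of its own letters, the longest being 17 bp in Xkr6 and 32 bp in Ccl28.
Rab39: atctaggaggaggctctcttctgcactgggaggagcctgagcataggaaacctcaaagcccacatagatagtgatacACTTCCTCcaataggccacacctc
Schip1: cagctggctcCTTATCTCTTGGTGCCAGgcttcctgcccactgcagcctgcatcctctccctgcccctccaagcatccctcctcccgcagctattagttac
Xkr6: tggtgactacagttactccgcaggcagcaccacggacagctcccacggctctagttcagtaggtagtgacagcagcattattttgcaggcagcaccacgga
Ccl28: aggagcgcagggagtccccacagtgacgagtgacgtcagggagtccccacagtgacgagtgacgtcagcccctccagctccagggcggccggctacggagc

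First introns held more regions per unit of sequence than later introns. The eligible sequence, that is intron more than 5 kb from starts and outside exons, came to 152 Mb in first introns of 6579 genes and 533 Mb in later introns of 13163 genes. Members numbered 30.9 per Mb (95% exact Poisson interval 30.0 to 31.8) and later-intron regions 24.3 per Mb (23.9 to 24.8), with intervals for counting error only. The ratio was 1.27 (95% interval 1.20 to 1.35, log2 0.34 ± 0.04 SE, two-sided p = 3.77e-15, n = 13815 genes, Poisson regression with errors grouped by gene). In each replicate's own IDR-thresholded list the order was the same: replicate 1 gave 19.9 members per Mb against 16.0, and replicate 2 gave 15.6 against 11.8. GC content of the eligible sequence was 42.7% in first and 42.2% in later introns, and 28.8% of it was marked as repeat in both.

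Distance from the nearest start moved with this difference. Between 5 and 10 kb from a start there were 39.9 members per Mb against 33.7 in later introns, and between 10 and 20 kb 41.0 against 33.6. These ratios were 1.18 (adjusted p = 1.24e-05, n = 13787 genes) and 1.22 (adjusted p = 3.74e-08, n = 10415 genes), with Benjamini-Hochberg adjustment over 10 distance and intron-length classes. From 20 to 50 kb the densities were 29.7 and 28.8 per Mb, from 50 to 100 kb 21.6 and 22.4, and beyond 100 kb 11.5 and 11.7. None of these 3 ratios passed the test, with 95% intervals of 0.940 to 1.13, 0.834 to 1.11 and 0.750 to 1.29. With distance class in the model the overall ratio was 1.10 (1.04 to 1.17, p = 0.000629, n = 13815 genes). It was 0.952 (0.898 to 1.01, p = 0.105, n = 13815 genes) when only the upper 50% of all regions by signal were kept, and without distance class that upper part gave 1.08 (1.01 to 1.15, p = 0.0173).

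**Figure D1:**
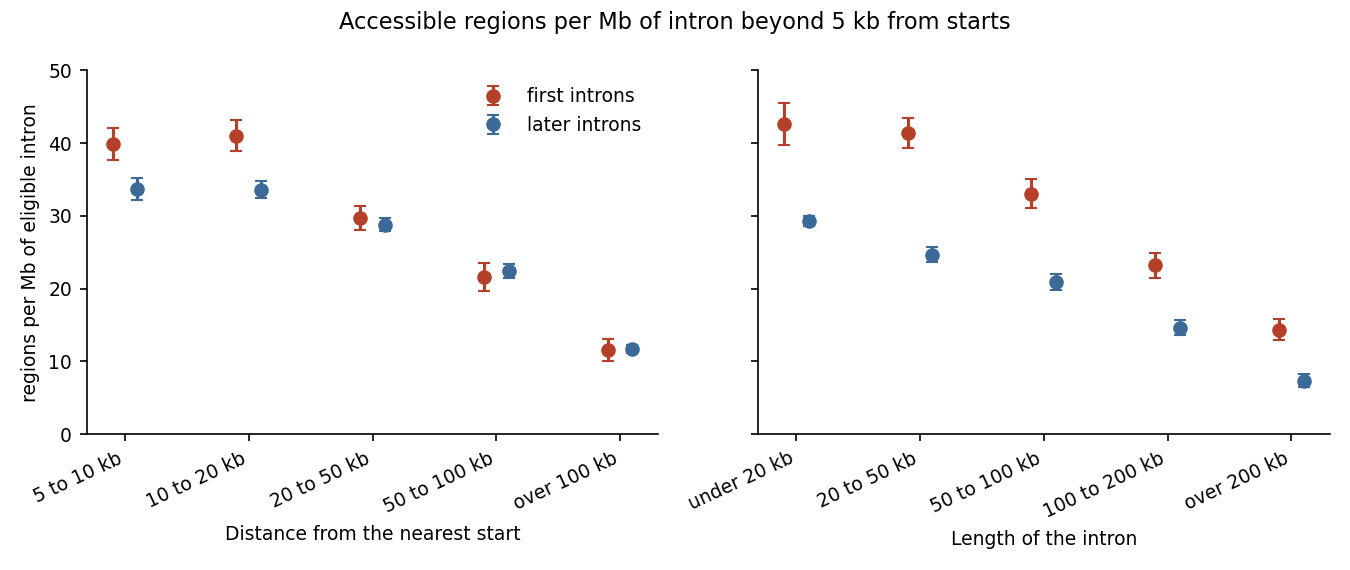
Regions per Mb of eligible intron sequence by distance from the nearest protein-coding start and by intron length, for first and later introns; points are densities and bars 95% exact Poisson intervals. First introns are higher within 20 kb of a start (41.0 against 33.6 per Mb at 10 to 20 kb) and level with later introns beyond, and are higher in all 5 length classes.

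Over genes with enough sequence in both classes, the ratio was at 1 with distance class in the model, and its direction depended on the setting. Sequence was pooled over these genes, so this is not a ratio within each gene. The 2462 genes with at least 10 kb of eligible sequence in both classes held 28.8 members per Mb of first intron and 22.1 regions per Mb of later intron. With distance class in the model their ratio was 1.00 (0.927 to 1.08, p = 0.977, n = 2462 genes). In the upper 50% of regions by signal it was 0.882 (0.818 to 0.9503, p = 0.000989, n = 2462 genes), and in the less strict replicated list 1.08 (1.01 to 1.15, p = 0.0330, n = 2462 genes). Intron length changed the value too: with length class added it was 1.22 (1.12 to 1.32, p = 1.73e-06, n = 2462 genes), an alternative chosen after the data were seen. Over all genes with eligible sequence, the ratio with length class was 1.59 without distance class and 1.25 (1.18 to 1.33) with it. These values come from the same alternative. Among introns of like length, first introns were denser in all 5 classes tested, in fits that held no distance class. The ratios by length class were not adjusted for distance, and part of their excess may go with it. Members numbered 42.6 per Mb against 29.3 in introns under 20 kb (ratio 1.46), 41.4 against 24.7 from 20 to 50 kb (1.68), 33.0 against 20.9 from 50 to 100 kb (1.58), 23.2 against 14.6 from 100 to 200 kb (1.59) and 14.3 against 7.35 above 200 kb (1.95, adjusted p = 0.0298, the highest of the 5, n = 164 genes). Above 200 kb the interval was wide (1.11 to 3.44), and 147 of the 422 members lay in 1 gene, Gm20388, described below. That class was not fitted without Gm20388. In both kinds of intron, longer introns were the sparser ones.

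By the number of the intron, density was highest in intron 1. Intron 1 held 30.9 regions per Mb, intron 2 26.6 (25.6 to 27.6), intron 3 25.01, introns 4 to 6 23.9, introns 7 to 10 25.04 and introns 11 and later 22.2. Against intron 2 alone the ratio for intron 1 was 1.16 (1.08 to 1.25, p = 6.44e-05, n = 9485 genes).

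Genes with an open promoter held more members per Mb of first intron. A promoter was counted as open when any region came within 1 kb of a protein-coding start of the gene. In such genes lay 4045 members (86.1%), beside 81.0% of later-intron regions. Such genes were 4795 of the 6579, with 103 of the 152 Mb of eligible first-intron sequence. Their first introns held 39.2 members per Mb, against 13.3 in genes with no promoter region, and with distance class in the model the ratio was 2.60 (2.26 to 3.00, p = 1.44e-40, n = 6579 genes). In the upper 50% of regions by signal that ratio was 1.32 (1.19 to 1.48). In that setting, here and below, promoters were also called open from the kept regions only, so some genes changed group. Later introns went from 28.8 to 14.7 per Mb. The difference between the 2 kinds of intron was itself tested: the promoter ratio was 1.499 times larger in first introns (1.30 to 1.73, p = 5.35e-08, n = 13815 genes), and 1.10 times (0.979 to 1.24, p = 0.109) when only the upper 50% of regions by signal were kept.

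The members themselves were slightly weaker and wider than later-intron regions. The signal value is the authors' own per-peak value, on a scale that is not stated, and was used to describe peaks within a list. Its median was 7.79 in members, 8.41 in later introns and 8.35 in all regions, a difference of −0.10 on the log2 scale between members and later-intron regions (p = 3.01e-21, n = 5953 genes, linear regression with errors grouped by gene). The lowest member had 1.93 and the highest 25.3. Median width was 476 bp in members and 457 bp in later introns (log2 difference 0.06, p = 5.29e-09, n = 5953 genes), and the median −log10 p was 38.1 and 38.3. GC content around the summit had a median of 51.5% in both. A start of a noncoding transcript lay within 1 kb of 2.04% of members and 1.90% of later-intron regions, beside 1.396% and 1.22% of the eligible sequence, and these shares of regions did not pass the test (p = 0.550, n = 5953 genes). The median member lay 21.7 kb from the start of its own transcript and 16.4 kb from the nearest protein-coding start.

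The 5 kb limit split a continuous set of first-intron regions. The member nearest the limit lay in Ppp6r1, 5005 bp from a start, with a signal value of 9.31, and the nearest region outside it lay in Tpst2 at 4997 bp, with 4.31. From 5 to 6 kb there were 312 members with a median signal of 6.97, and from 4 to 5 kb 309 first-intron regions with a median of 6.19.

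The replicates' own lists met members about as often as later-intron regions, and both less often than all regions, with no test made. Replicate 1's own IDR-thresholded list met 61.6% of members (2894) and 62.5% of later-intron regions, against 67.9% of all regions. Replicate 2's met 49.5% (2325) and 47.6%, against 54.9% of all regions. Both lists met 44.6% of members and 42.7% of later-intron regions, and neither met 33.4% and 32.6%. The less strict pseudoreplicated lists met 98.0% of members and 97.9% of later-intron regions in replicate 1, and 95.3% and 94.1% in replicate 2. In the 4419 members met by both of the latter, median signal was 7.20 in replicate 1 and 7.33 in replicate 2, and the log2 ratio of the replicates had an SD of 0.22 over members. Across these members Spearman's rho was 0.886 and Pearson's r of log2 signal 0.897; members are not independent replicates and were picked from lists built on both libraries. Of the first-intron regions in replicate 1's own list, 69.6% of 3027 were met in replicate 2, against 65.4% of 8532 in later introns (log2 odds 0.27 ± 0.07 SE, p = 2.64e-05, n = 4931 genes, logistic regression). In the other direction the shares were 89.1% of 2368 and 88.9% of 6269 (p = 0.763, n = 4100 genes). With the pseudoreplicated lists the first value was 0.030 (p = 0.532, n = 6935 genes) and the second −0.35 (p = 2.77e-06, n = 6371 genes), so the direction depended on the list.

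**Figure D2:**
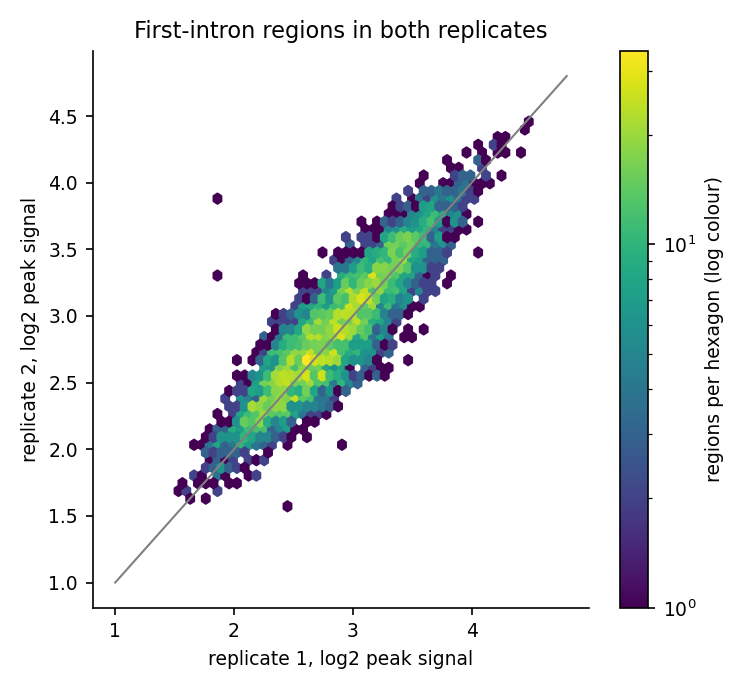
Log2 signal value of first-intron regions in replicate 1 (x axis) and replicate 2 (y axis). Hexagons are coloured by the number of regions they hold (log colour), over the 4419 members met by the pseudoreplicated lists of both. The hexagons lie along the line of equal values, with median signal values of 7.20 and 7.33 and an SD of the log2 ratio of 0.22.

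CTCF matches were rarer in members than in later-intron regions. The CTCF consensus was found within 50 bp of the summit in 177 members (3.77%, exact binomial interval 3.24 to 4.35%) and in 1123 later-intron regions (8.66%, 8.18 to 9.16%), beside 6.56% of all regions and 0.0122% of windows 500 bp away. The log2 odds ratio was −1.28 (−1.55 to −0.999, adjusted p = 3.62e-18, n = 5953 genes, logistic regression with errors grouped by gene, adjusted over 25 motifs). Replicate 1's own list gave 4.16% against 9.10%, and replicate 2's 3.34% against 8.33%. Matches were also rarer in the sequence itself: first introns held 4.37 CTCF matches per Mb, of which 29.8% lay inside a region, and later introns 5.72 per Mb, of which 40.5% did. In both classes regions with a CTCF match had the higher median signal, 8.85 against 7.79 in members, and were narrower, 313 bp against 482 bp. Regions without one still numbered 29.7 per Mb in first and 22.2 per Mb in later introns.

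The CTCF share was lowest in intron 1 and highest in introns of high number, counted from the start of the transcript. The intervals of the 2 highest classes overlapped (9.92 to 12.6% in introns 7 to 10, 10.4 to 12.7% in introns 11 and later). It was 3.77% in intron 1, 5.09% in intron 2, 6.46% in intron 3, 8.38% in introns 4 to 6, 11.2% in introns 7 to 10 and 11.6% in introns 11 and later. Regions with CTCF numbered 1.16, 1.35, 1.62, 2.01, 2.80 and 2.57 per Mb in the same order. Against intron 2 alone the log2 odds ratio of members was −0.45 (−0.81 to −0.09, adjusted p = 0.190, n = 3150 genes), so that neighbouring step did not pass the test. By distance, the share in members was 3.53% at 5 to 10 kb, 3.63% at 10 to 20 kb, 3.55% at 20 to 50 kb and 3.70% at 50 to 100 kb, against 10.2%, 10.003%, 8.67% and 7.44% in later introns. Beyond 100 kb it was 7.30% of 233 members (4.31 to 11.4%) against 6.12%, and the intervals overlapped.

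**Figure D3:**
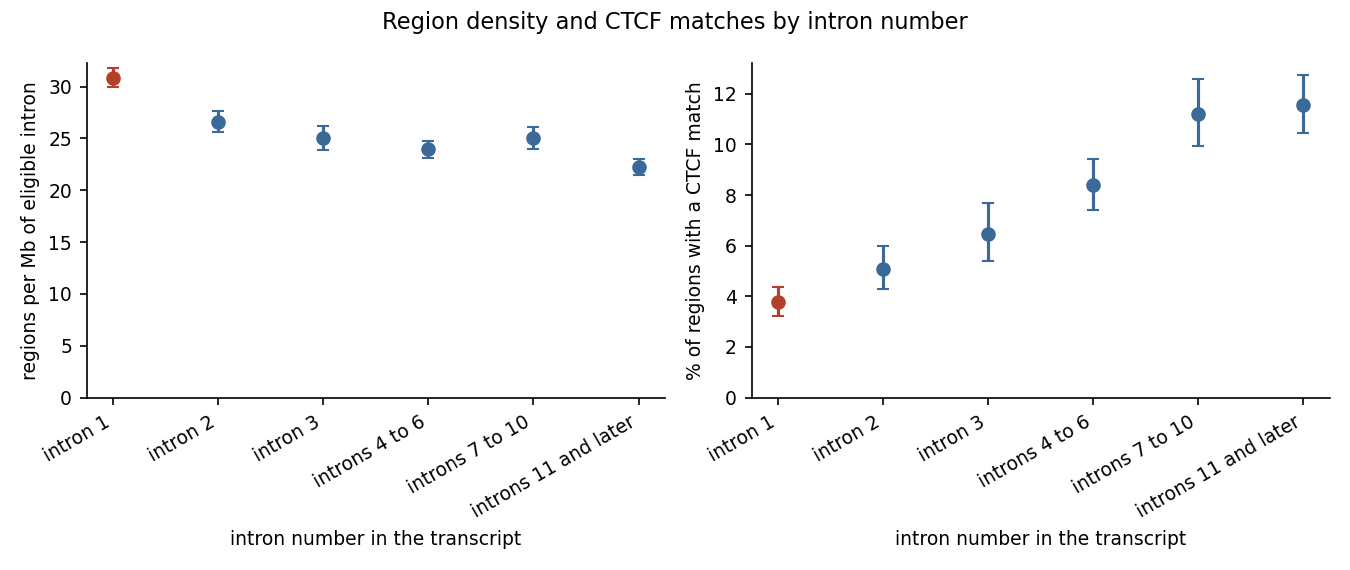
Regions per Mb of eligible intron sequence and the percent of regions with a CTCF match within 50 bp of the summit, by the number of the intron in the gene, with exact 95% intervals. Density is highest in intron 1 (30.9 per Mb), and the CTCF share goes from 3.77% in intron 1 to 11.6% in introns 11 and later.

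Of the blood-factor motifs, KLF and GATA were more frequent in members. KLF factors bind CACC boxes, and their consensus was found in 6.26% of members and 4.51% of later-intron regions (log2 odds 0.50 ± 0.11 SE, adjusted p = 3.89e-05, n = 5953 genes). In the replicated list that value was 0.18 (adjusted p = 0.170, n = 7635 genes), and the call was lost. All regions gave 6.14% and windows 500 bp away 2.97%. GATA, bound by GATA1 and GATA2, was found in 4.94% against 3.96% (log2 odds 0.34 ± 0.12 SE, adjusted p = 0.0356, n = 5953 genes), beside 3.11% of all regions and 1.15% of the flanking windows. That call was lost in each replicate's own list (adjusted p = 0.0801, n = 4931 genes in replicate 1, and 0.160, n = 4100 genes in replicate 2), although replicate 1 gave 5.68% against 4.52% and replicate 2 5.32% against 4.26%. Against intron 2 alone neither motif passed (adjusted p = 0.190 for KLF and 0.447 for GATA, n = 3150 genes). PU.1, the ETS factor of myeloid cells, had a match in 7.75% of members and 7.16% of later-intron regions, beside 5.99% of all regions and 0.428% of the flanking windows (adjusted p = 0.394, n = 5953 genes). RUNX was found in 5.00% and 4.16% (adjusted p = 0.109, n = 5953 genes), beside 3.31% of all regions. C/EBP was found in 6.30% and 5.42% (adjusted p = 0.133, n = 5953 genes), beside 5.13% of all. AP-1 was found in 6.30% and 5.58% (adjusted p = 0.262, n = 5953 genes), beside 4.93% of all. The composite E-box-GATA, bound by TAL1 with GATA1 in red cells, was found in 0.937% and 0.856% (0.613% of all regions). In all, 2 of 25 motifs were more frequent in members and 1 less, and 5 had an unadjusted p under 0.05.

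Regions covered 1.59% of the eligible sequence in first introns and 1.21% in later introns, a ratio of 1.31. Matches to the blood-factor consensuses lay inside a region more often in first introns by ratios close to that, as a description with no test. For PU.1, 7.18% of 9526 matches in first introns lay in a region, against 5.54% of 31812 in later introns (ratio 1.297). The shares were 3.97% against 2.87% for RUNX (1.38), 2.58% against 1.89% for GATA (1.36), 2.59% against 1.82% for KLF (1.43), 1.73% against 1.26% for C/EBP (1.37) and 2.08% against 1.60% for AP-1 (1.298). CTCF, at 29.8% against 40.5% (0.736), went the other way from the coverage.

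**Figure D4:**
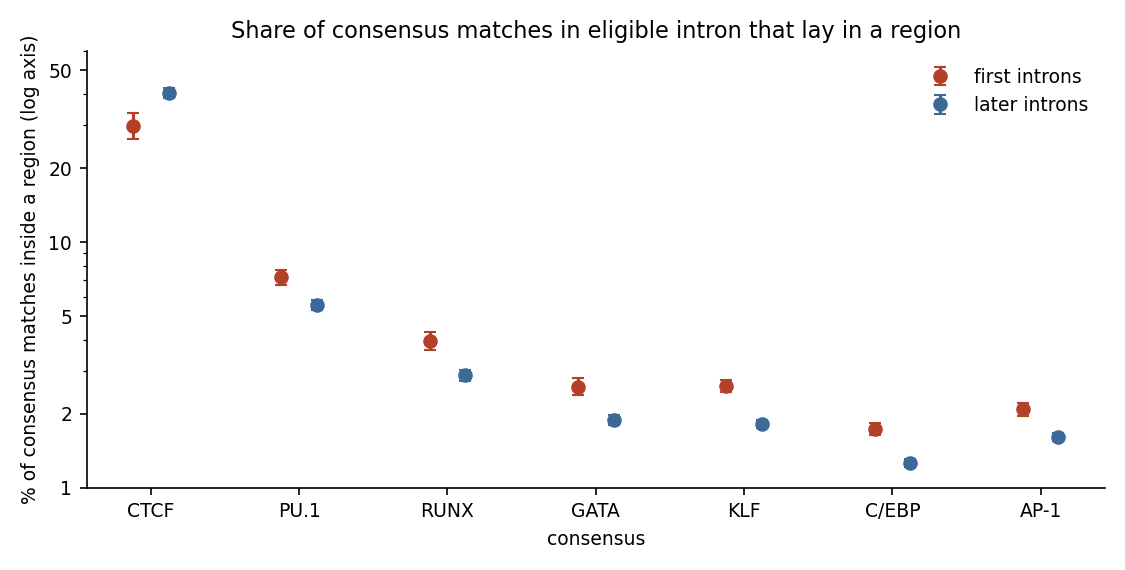
Percent of consensus matches in eligible intron sequence that lie inside a region, for 7 motifs (log y axis), in first and later introns, with exact 95% binomial intervals. PU.1, RUNX, GATA, KLF, C/EBP and AP-1 are higher in first introns by about the ratio of the sequence that regions cover (1.59% against 1.21%), and CTCF is lower (29.8% against 40.5%).

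Members were spread over 2130 genes, which is 32.4% of the 6579 genes with eligible first-intron sequence. Of these, 1119 held exactly 1 member, and 185 with 5 or more held 1449 members (30.9% of all). Among 3079 genes with at least 10 kb of eligible sequence, the median was 15.6 members per Mb and 1435 genes had none.

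The genes with most members per kb were taken from 525 with at least 10 kb of eligible sequence and at least 3 members. Counts behind these ranks are small. Sctr, the secretin receptor, came first with 0.395 members per kb (4 in 10.1 kb), although it had no promoter region. Its strongest member, the CTCF-matching window printed above, had signal values of 7.66 in replicate 1 and 8.48 in replicate 2, and the other 3 lay between 4.12 and 5.53 in both. Gng2, a G protein gamma subunit, had 0.364 per kb (4), and its PU.1-matching member had 7.32 and 7.64 in the 2 replicates. Arpp21 had 0.362 per kb (4); its member 27.0 kb from the start had the highest signal of the 10 genes, at 14.3 in replicate 1 and 16.4 in replicate 2, while a weak one was found only in replicate 1.

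Irak3, an inhibitor of Toll-like receptor signalling, had 0.358 per kb (5 in 13.95 kb). Its GATA-matching member 18.6 kb from the start had 10.9 and 9.50 in the replicates, 2 others matched PU.1 (7.42 and 7.31, 5.94 and 5.68), and the weakest, at 4.10, was met in replicate 1 alone. Pla2g4a, which encodes cytosolic phospholipase A2 and releases arachidonic acid, had 0.340 per kb from the longest stretch of the 10 (8 in 23.5 kb). Its 8 members spanned 5.66 to 23.3 kb from the start, with signals from 3.69 to 8.90 in replicate 1 and 3.79 to 8.24 in replicate 2. Tnfrsf1b, a receptor for tumour necrosis factor, had 0.313 per kb (4), and the member with both C/EBP and PU.1 letters had 9.41 and 9.78. The strongest members were picked by signal in the list built on both libraries, so their replicate values are no check of agreement.

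Usp15, a deubiquitinase, had 0.296 per kb, Sirpa, a myeloid receptor for CD47, 0.294, and Nup210, a nuclear pore protein, 0.288, each from 3 members. Gypc, glycophorin C of the red cell membrane, had 0.275 from 4. In Sirpa all 3 members lay between 5.19 and 6.53 in both replicates, and 2 of them matched AP-1. The ranks rest on the list and the minimum length. Of the 10 genes, 4 were among the 10 densest in replicate 2's own list and 5 in replicate 1's, and Pla2g4a alone remained with at least 20 kb required, followed there by Kdm4b, Zmiz1, Pip4k2a and Rin3. In the replicates' own lists Sctr had 2 regions in replicate 1 and 1 in replicate 2, Nup210 1 and none, and Gng2, Usp15 and Sirpa 1 in each.

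**Figure D5:**
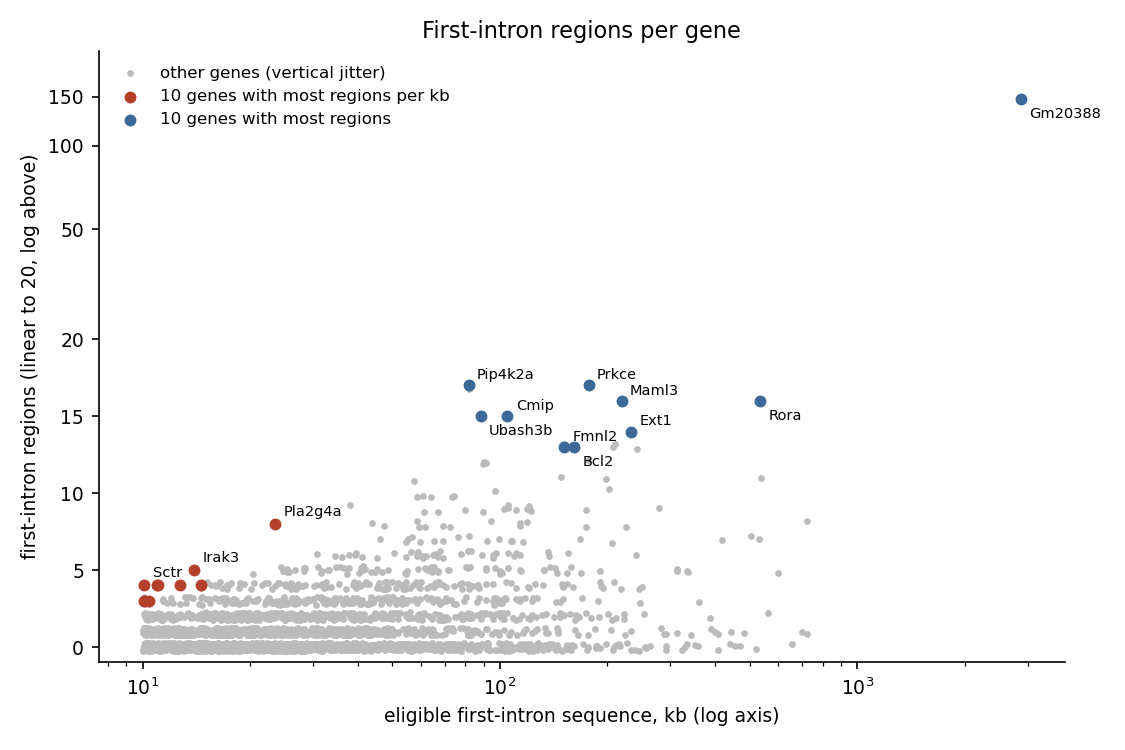
Members per gene (y axis, linear to 20 and log above) against eligible first-intron kb (log x axis), each point 1 of the 3079 genes with at least 10 kb of it, unnamed genes with a small vertical jitter and named genes coloured. Pla2g4a (8 in 23.5 kb) and Pip4k2a (17) lie above genes of like length, and Gm20388 (147) stands alone.

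By count, Gm20388 led with 147 members (3.13% of all). This annotated gene on chromosome 8 has a first intron of 4.38 Mb that spans 72 other protein-coding genes, so its members lie beside other genes' starts as well, and without it the density ratio was 1.25 (1.18 to 1.32). Pip4k2a, a lipid kinase, and Prkce, a protein kinase C, held 17 each, Maml3, a Notch coactivator, and Rora, a nuclear receptor, 16 each, Cmip and Ubash3b, a phosphatase that dampens tyrosine kinase signalling, 15 each, Ext1, a heparan sulfate polymerase, 14, and Bcl2, an inhibitor of cell death, and Fmnl2, a formin, 13 each. Their density ran from 29.9 per Mb in Rora to 207.7 per Mb in Pip4k2a, so Rora was close to all first introns. The members of Pip4k2a reached from 5.45 to 81.9 kb from its start. All 17 were met by the pseudoreplicated lists of both replicates, as were 94.1% of all members. In this intron replicate 1's own list had 11 regions and replicate 2's had 7. The strongest Pip4k2a member, a C/EBP match, had 8.12 and 8.56 and was met by replicate 1's own list only. None of the 17 matched CTCF, beside only 3.77% of all members that did.

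The 10 strongest members lay in 10 different genes. Xkr6 had a signal value of 22.3 in replicate 1 and 21.97 in replicate 2, and Rab39, a small GTPase, 21.4 and 20.97. Efna5 (an ephrin) had 21.2 and 18.9, Ccl28 (a chemokine) 19.7 and 20.1, Entpd1 (CD39, which breaks down extracellular ATP) 18.3 and 20.4, Ppm1d 17.9 and 19.6, Ckap5 18.98 and 18.8, Ank2 19.6 and 18.4, Lsmem1 18.7 and 16.5, and Schip1 18.97 and 19.3. These 10 were picked by signal in a list built on both libraries, so high values in both replicates follow from the choice. Of these windows, 4 matched PU.1, GATA or both GATA and E-box-GATA (Rab39, Ank2, Lsmem1 and Schip1). Over all members, PU.1 was matched in 7.75% and GATA in 4.94%. None of the 10 matched CTCF, which was matched in only 3.77% of all members. Xkr6 and Ckap5 matched only other consensuses of the 25 fitted. No test was made on so few windows.

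Most of the 280 genes with at least 100 kb of eligible first-intron sequence had a member. The 10 longest without one were Cadm2, Fgf14, Nkain2, Nrg3, Zfp804b, Hs3st4, Erbb4, Lsamp, Lhfpl3 and Sdk1, with 656 kb in Cadm2 and 330 kb in Sdk1. They were chosen for having none, and first introns over 200 kb held 14.3 members per Mb in all, with the 147 of Gm20388 counted. Replicate 1's own list had 1 region in Lhfpl3. Of these genes, 8 had no promoter region, the exceptions being Cadm2 and Sdk1. Among all 6579 genes with eligible first-intron sequence, 1784 had no promoter region. The share among the 280 long genes was not counted, and no test was made on these 10.

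Gene lists chosen by function showed where members lay among blood genes, beside 32.4% of all genes with a member and 30.9 members per Mb. Among genes with at least 10 kb of eligible sequence, 1435 of 3079 had none, so shares of genes depend on eligible length. Density moved with promoter state too, at 39.2 members per Mb in genes with an open promoter and 13.3 in those without. Most of the blood genes listed had an open promoter and most of the neuronal genes did not. The lists were not matched for this. Of 10 stem and progenitor regulators with eligible sequence, 8 had a member, at 130.6 per Mb. Fli1, an ETS factor of stem cells and megakaryocytes, had 6, Etv6, an ETS repressor, 5, Cbfa2t3, a corepressor, 4, and Flt3, a cytokine receptor of early progenitors, 2. The Flt3 members had 6.77 and 7.70 in the replicates for a C/EBP match and 6.22 and 7.90 for a RUNX match, and both were in each replicate's own list. The strongest Etv6 member had 8.88 and 8.43. The 6 in Fli1 were weak, between 3.83 and 6.11 where a replicate had a value, and none was in replicate 2's own list. Kit, the stem cell factor receptor, had none in 27.1 kb and Lmo2 none in 0.760 kb.

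Of 9 erythroid genes, 8 had a member, at 43.0 per Mb: Sptb (spectrin) had 3, Tspan33, Slc25a37 (mitoferrin) and Zfpm1 (the GATA1 cofactor FOG1) 2 each, and E2f2, Rhag, Abcg2 and Ank1 1 each, while Sox6 had none. Granulocyte and monocyte genes gave 2 of 3 (Mef2c and Ly86), at 84.6 per Mb. Megakaryocyte genes gave 3 of 6 (Fli1 with 6, Itgb3 with 2 and Mef2c with 1), at 115.5 per Mb. Of 7 lymphoid genes 2 had a member, at 45.2 per Mb: Bach2, a repressor active in B cells and progenitors, had 8 and Foxp1 4, while Pax5, Cd4, Cd28, Bcl11b and Themis had none. The strongest Bach2 member had 9.35 and 10.3. Cytokine signalling gave 6 of 10 genes, at 51.0 per Mb, with 4 each in Vav3 and Lyn, 2 each in Jak1 and Vav1, and 1 each in Stat5b and Pik3cd.

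Chromatin and leukemia genes gave 10 of 12, at 76.6 per Mb. Zmiz1, a coactivator, had 9, Jarid2, a partner of Polycomb complex PRC2, 4, Tet2, a DNA demethylase often mutated in myeloid disease, 3, and Dnmt3a, a DNA methyltransferase, 2. The strongest Tet2 member had 8.81 and 9.47. Neuronal genes, taken as a contrast, gave 7 of 16, above the share of all genes, but their first introns were long and the density was 5.44 per Mb, with 11 members in Ntm, 5 each in Csmd1 and Opcml, 2 in Cntnap2 and 1 each in Rbfox1, Snap25 and Kcnip4. Genes of muscle, liver and other tissues gave 4 of 11 at 9.34 per Mb. Housekeeping genes had eligible sequence in 3 cases and no member. No test was made over these lists, whose genes overlap in part (Fli1, Mef2c and Zfpm1 each stand in more than 1).

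Promoters of marker genes were listed beside the label of the cells. By the same rule, 4795 of the 6579 genes with eligible first-intron sequence had a promoter region. Having one is therefore common, and these calls do not settle the label. Kit, Cd34, Flt3, Spi1 and Cebpa had a promoter region in the conservative list and in both replicates' own lists, and Mpo in the conservative list only. Of the markers of other cells given here, Cd3e, Ngp, Ltf, S100a8 and C1qa had none, while Ebf1, Pax5, Cd3d, Hbb-bt and Adgre1 had one in all 3 lists. Their part in the results was not tested.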

How the data were processed

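ATAC-seq peak lists of 2 libraries and of both together were used. Peaks were deposited by the authors on mm10, with a signal value of unstated scale and a −log10 p per peak; the sources used here name no aligner, peak caller or correction for the transposase offset. The lists of the series were called over both replicates and those of a replicate from its own alignments, per the deposited notes. They hold no counts, so depth is unknown and intervals over regions cover counting error only.

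Overlapping peaks were merged on chromosomes 1 to 19 (102186 peaks in the conservative list, 99669 of them there) and set against GENCODE M21. Eligible sequence lay in an intron of the longest spliced transcript of a protein-coding gene, over 5 kb from protein-coding starts, outside exons of any gene and not N. A base in any intron 1 counted as first intron. Replicate values of a member are the signal of the strongest peak meeting it in that replicate's pseudoreplicated list. Density was fitted by Poisson regression with log length as offset, shares by logistic and log2 values by linear regression, each with sandwich errors grouped by gene, in statsmodels 0.14.6 (Python 3.11.15, SciPy 1.17.1). Motifs were matched to the whole consensus on both strands, and 25 of 27 were fitted, those with at least 10 matches, a minimum chosen after seeing the data (YY1 and HNF1 were left out). On simulated data with no difference the density fit called 7% of 100 draws, the share fit 7% and the linear fit 6%, and a log2 difference of 0.3 in density was returned as 0.29 on average.

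Genes were named when among the 10 with most members per kb (at least 10 kb and 3 members), the 10 with most members, the genes of the 10 strongest members, the 10 longest first introns without one, or members of the gene lists; ties went by symbol. The 10 longest without one, and the genes next in rank at 20 kb, were added after values were seen. A marker gene and a sequence window are not reported here. The members and lists were chosen with earlier results of these data known. Alternatives covered the peak list, the replicates, transcript choice, distance, exons, GC content, intron length and overlap. Sequences and coordinates are from GRCm38.p6.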

Additional observations from a re-analysis of the deposited data

How the results depend on the processing

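The density ratio of first to later introns kept its direction and its test in all 14 alternatives, as did the higher density in genes with an open promoter in 13, the lower signal in 12 and the larger width in 11. On the log2 scale, the ratio with distance class was −0.070 in the upper 50% of regions by signal and kept its call otherwise, and the promoter interaction was 0.14 there. The ratio pooled over genes with sequence in both classes was 0.0017 and changed sign in 9 alternatives. It was −0.016 in the series IDR-thresholded list and −0.18 in the upper 50% (past the test, p = 0.000989, n = 2462 genes). It was −0.037 with the longest genomic span, −0.0067 over 10 kb from starts and −0.00044 with exons of protein-coding genes only. It was −0.032 without Gm20388, −0.00051 without sequence in introns of both classes and −0.048 in genes with under 20 regions. It was 0.10 in the replicated list and 0.29 with intron length class, both past the test. Leaving out replicate 2 or 1 gave −0.051 to 0.021 for it, and −0.011 to 0.15 for the log2 odds of a noncoding start, which was −0.087 in the replicated list, −0.24 in the upper 50% and −0.015 over 10 kb from starts. The GC difference was −0.0016 points without Gm20388. The count of motifs past the test, 3, was 1 in the replicated list, where KLF was lost (adjusted p = 0.170, n = 7635 genes), and 0 against intron 2 alone; GATA was lost in 8 of 15 alternatives. Recurrence of replicate 1's regions was 0.030 with pseudoreplicated lists; that of replicate 2's was −0.35 there, −0.0059 with the longest span and 0.41 with signal as covariate. The causes were not tested. No paired analysis was possible because the series has 1 group. Depth is unknown, so weaker regions missed in a library cannot be told from closed ones.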
